A study of Saccharomyces cerevisiae with 12 samples.

Results

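The transcriptome of Saccharomyces cerevisiae strain YJ-04, into which a bikaverin biosynthesis module had been introduced, was compared with that of strain YJ-08, into which plasmid pRS416 had been introduced. Both strains were labelled as low in S-adenosylmethionine (SAM) and were sampled at 36 h, with 3 libraries each, so the comparison uses 6 of the 12 libraries of the series, chosen by their labels alone. The other 6 libraries, 3 of bikaverin strain YJ-06 and 3 of pRS416 strain YJ-09, both labelled high in SAM at 36 h, enter only where the low-SAM difference is set against the high-SAM one. The labels name neither the parent strain, the mating type, the medium, the way in which the SAM level was set, nor whether the module was carried on a plasmid or in a chromosome, and each group is a single strain. They do not say that the replicates were separate cultures either, so the p-values here rest on library-to-library spread alone, which may be technical.

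Expression was given as FPKM, a read abundance corrected for gene length and library size, in a separate table for each pair of strains. The libraries are bulk RNA, in which fewer cells of a type and less RNA per cell cannot be told apart. Strain and table therefore coincide, and depth differs with them: reads recovered on genes matched to R64 came to 16.1, 16.4 and 17.8 M for bikaverin, against 40.6, 43.2 and 40.1 M for pRS416, and the depths differed 2.46-fold. An effect of the module, of the strain background, of the table and of the depth cannot be told apart in any value below. The 6 libraries were rescaled jointly by median-of-ratios, with divisors of 1.02 for each bikaverin library and 0.979, 0.984 and 0.978 for the pRS416 libraries. The tables shared 6526 features, of which 6218 had a mean of at least 1 FPKM and were tested with limma on log2(FPKM + 1), a scale that understates the change of low genes. A gene is said to have risen, fallen or been called where its p, adjusted by Benjamini and Hochberg's method over all 6218 features, was below 0.05.

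Bikaverin is a red polyketide pigment of Fusarium fungi. A polyketide synthase builds its carbon skeleton from acetyl-CoA and malonyl-CoA, and a monooxygenase and an O-methyltransferase finish the molecule, the methyltransferase with SAM as methyl donor. In yeast, SAM is made from methionine, spent in methylation to S-adenosylhomocysteine, and returned through homocysteine, while sulfur enters by reduction of sulfate. The activator Met4, brought to DNA by Cbf1 or by Met31 and Met32, drives the sulfate genes and is held back when sulfur metabolites are plentiful. Zinc supply has its own activator, Zap1, which binds zinc-responsive elements upstream of zinc transporter genes when zinc is scarce. The centromeric plasmid pRS416 carries URA3, a gene of pyrimidine synthesis, as its marker.

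The module's own genes could be looked at only in the pRS416 table, which lists BIK1, BIK23, BIK3, BIK6, NPGA and PPT. Those 6 features reached at most 0.805 FPKM in the low-SAM pRS416 libraries, and 1 of them was listed at 0 in all 3. The module genes of the bikaverin libraries were not analysed here, so the label of YJ-04 was not checked against its own transcripts. URA3 measured 777, 818 and 733 FPKM in the bikaverin libraries, against 1658, 1542 and 1574 FPKM in the pRS416 libraries. It fell (log2 fold change -1.03 ± 0.07 SE, limma adjusted p = 4.9e-06), with no overlap, and was abundant in both strains.

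Promoter windows are shown for 3 genes of the zinc list and 3 of the sulfate list, chosen because they hold letters of a known regulator of their list. The windows run from 400 to 101 bases before the start codon, in the R64 build, read from RefSeq. In the first 3, capitals mark matches to the zinc-responsive element of Zap1 on either strand. ZRT1 (chrVII:20578-20877, plus strand) encodes the high-affinity zinc transporter of the plasma membrane. ZPS1 (chrXV:34258-34557, plus strand) encodes a cell-wall protein made in zinc-poor cells. ZRT2 (chrXII:404163-404462, minus strand) encodes the low-affinity zinc transporter.
ZRT1: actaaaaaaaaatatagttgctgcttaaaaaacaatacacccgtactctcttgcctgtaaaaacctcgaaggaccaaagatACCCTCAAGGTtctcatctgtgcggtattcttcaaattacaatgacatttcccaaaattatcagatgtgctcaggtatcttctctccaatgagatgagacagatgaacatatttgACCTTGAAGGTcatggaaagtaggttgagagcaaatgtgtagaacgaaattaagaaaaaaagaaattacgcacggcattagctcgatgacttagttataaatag
ZPS1: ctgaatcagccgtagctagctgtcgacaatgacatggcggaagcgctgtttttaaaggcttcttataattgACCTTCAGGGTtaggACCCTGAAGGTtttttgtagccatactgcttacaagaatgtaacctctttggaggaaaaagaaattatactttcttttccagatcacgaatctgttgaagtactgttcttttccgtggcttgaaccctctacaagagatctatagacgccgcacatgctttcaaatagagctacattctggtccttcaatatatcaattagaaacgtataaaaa
ZRT2: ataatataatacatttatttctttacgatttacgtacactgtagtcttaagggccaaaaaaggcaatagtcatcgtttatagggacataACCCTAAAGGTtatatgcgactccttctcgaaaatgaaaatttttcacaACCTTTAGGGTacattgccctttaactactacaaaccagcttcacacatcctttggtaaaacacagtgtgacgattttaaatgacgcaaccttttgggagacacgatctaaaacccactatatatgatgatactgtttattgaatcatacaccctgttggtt

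The element was found in the windows of 5 of the 7 genes of the zinc list, ZRT1, ZPS1, ZRT2, ZAP1 and ZRT3, and in 12 of 6007 coding windows of that length genome-wide (0.2%). ZRT1, ZPS1 and ZRT2 each hold a pair of matches. All 12 genes with a match were tested. Of these, 8 rose and 3 fell, against 33.2% and 33.9% of all tested features, and their median log2 fold change was 0.97. The 5 zinc-list genes, listed with results known, are among the 8, so these counts are not independent of the zinc list. The rest were mixed: TEX1 at 1.11, MRX15 at 0.82, PAN1 at 0.58, LOG1 at -0.04, PCD1 at -0.57, PKH1 at -0.70 and YPL264C at -0.92. In the next 3 windows, capitals mark CACGTG, the E-box letters that Cbf1 binds, which read the same on both strands. MET14 (chrXI:439486-439785, minus strand) encodes APS kinase, MET3 (chrX:455839-456138, plus strand) ATP sulfurylase and MET5 (chrX:683386-683685, minus strand) a subunit of sulfite reductase.
MET14: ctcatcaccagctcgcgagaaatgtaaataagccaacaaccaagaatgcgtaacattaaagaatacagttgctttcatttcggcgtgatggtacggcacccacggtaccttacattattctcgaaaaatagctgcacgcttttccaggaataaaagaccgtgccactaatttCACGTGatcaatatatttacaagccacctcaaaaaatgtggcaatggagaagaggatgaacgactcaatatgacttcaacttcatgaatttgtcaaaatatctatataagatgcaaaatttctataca
MET3: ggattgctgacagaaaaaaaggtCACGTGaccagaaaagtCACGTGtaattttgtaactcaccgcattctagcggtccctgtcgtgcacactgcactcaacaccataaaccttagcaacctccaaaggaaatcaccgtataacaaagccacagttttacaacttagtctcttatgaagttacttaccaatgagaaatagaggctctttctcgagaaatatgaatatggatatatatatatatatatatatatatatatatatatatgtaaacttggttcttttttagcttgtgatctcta
MET5: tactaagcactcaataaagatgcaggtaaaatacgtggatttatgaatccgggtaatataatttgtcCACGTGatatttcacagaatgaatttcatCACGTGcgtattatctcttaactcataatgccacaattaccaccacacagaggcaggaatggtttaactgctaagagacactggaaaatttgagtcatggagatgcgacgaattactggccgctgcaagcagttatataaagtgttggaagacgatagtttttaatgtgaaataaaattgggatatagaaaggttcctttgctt

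CACGTG stood in the windows of 10 of the 11 sulfate genes, all but SUL1, and in 273 of 6007 coding windows (4.54%). Of the 269 tested genes with the letters, 77 rose and 100 fell (28.6% and 37.2%), and their median log2 fold change was -0.01. A match is a description of the letters in this window and not a measured binding site.

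Of the 6218 features tested at low SAM, 2065 (33.2%) were called higher and 2108 (33.9%) lower in the bikaverin strain, 4173 in all (67.1%). The 3 bikaverin and 3 pRS416 values did not overlap for 4520 features (72.7%). With 1 unit of log2 fold change as a further limit, 532 features were higher and 328 lower, and with 2 units 115 and 42. The median log2 fold change over all features was -0.003 and the quartiles were -0.36 and 0.40. Scaling each library to an equal sum of FPKM raised the median to 0.13 and gave 2628 higher and 1597 lower calls, so that 62.2% of calls were higher, against 49.5% in the joint rescaling. Changes are given here relative to the joint rescaling. Counts of list members below are to be read against the 33.2% of features called higher and the 33.9% called lower.

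**Figure D1:**
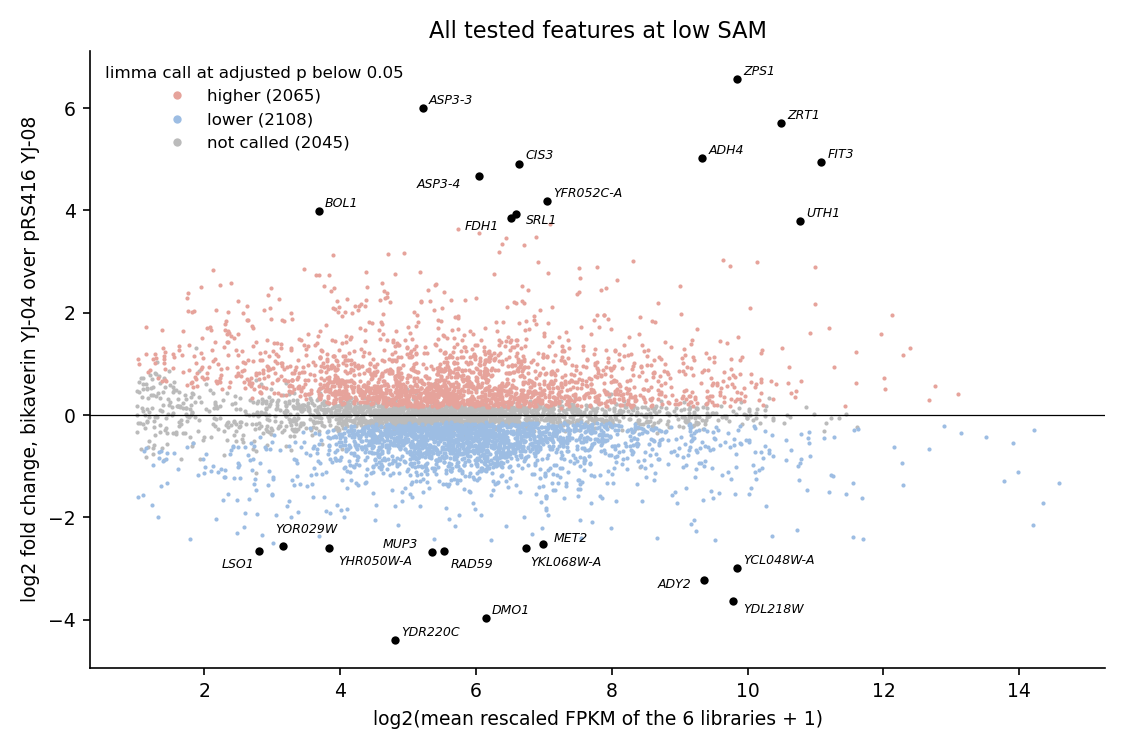
Log2 fold change of the bikaverin strain over the pRS416 strain at low SAM (y) against log2(mean rescaled FPKM of the 6 libraries + 1) (x), 1 point a feature, coloured by call. Black points are the 12 called features of largest rise and the 12 of largest fall with at least 10 FPKM in the higher strain and no overlap, from ZPS1 at 6.57 to YDR220C at -4.39.

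Libraries of a strain resembled each other closely. Pearson's r of log2(FPKM + 1) across features was 0.987 to 0.993 among bikaverin libraries, 0.996 to 0.997 among pRS416 libraries and 0.914 to 0.922 between them, and the first principal component, which separated the strains, held 88.9% of the variance. The median SD of a gene over its replicates was 0.113 in bikaverin and 0.0654 in pRS416 libraries on the log2 scale. GC content moved with the comparison: the quartile of matched genes lowest in GC had a median log2 fold change of -0.17, with 19.2% called higher and 45.3% lower, and the quartile highest in GC one of 0.20, with 47.8% and 25.1%. At high SAM the medians of those quartiles were -0.09 and 0.10. The part of GC content in a single result was tested by removing a GC trend from each library, an alternative added after seeing the data. It is named below where it ends a call. Length moved less with it, the medians of the quartiles by exonic length lying between -0.03 and 0.00. By chromosome the median ran from -0.08 on chromosome IV to 0.11 on chromosome VI, and it was 0.11 for the 212 tested features within 20 kb of a chromosome end, against -0.02 for the other 5617.

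Genes of zinc supply rose together. All 7 of 7 tested genes of the zinc list were higher in the bikaverin strain, with a median log2 fold change of 2.49, against a background of 33.2% of features called higher. ZRT1 (chrVII:20978-22108) measured 2650, 2861 and 2962 FPKM in the bikaverin libraries, against 53.2, 51.5 and 54.3 FPKM in the pRS416 libraries. Every bikaverin library lay far above every pRS416 library, and the mean was 53.3-fold higher (log2 fold change 5.71 ± 0.06 SE, limma adjusted p = 8.6e-10). ZPS1 (chrXV:34658-35407) stood at 1932, 1912 and 1626 FPKM with the bikaverin module, against 17.6, 16.4 and 20.5 FPKM with pRS416. The rise was 100.2-fold (log2 fold change 6.57 ± 0.10 SE, limma adjusted p = 4.1e-09), the largest among all tested features on the log2(FPKM + 1) scale. As a ratio of means ASP3-3, described below, rose more, 500.3-fold from a pRS416 mean of 0.145 FPKM. ADH4, an alcohol dehydrogenase made in zinc-poor cells, gave 1333, 1364 and 1054 FPKM in the bikaverin libraries, against 36.4, 41.0 and 34.6 FPKM in the pRS416 libraries. It lies near ZRT1 on chromosome VII (chrVII:15159-16307) and rose 33.5-fold (log2 fold change 5.02 ± 0.11 SE, limma adjusted p = 3e-08).

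The other zinc genes rose less. ZRT2 averaged 409.6 ± 20.8 FPKM in bikaverin and 71.9 ± 1.14 FPKM in pRS416 (SD, n = 3 each), a rise of 2.49 on the log2 scale (SE 0.059, limma adjusted p = 4e-08). ZAP1, the activator that also acts on its own promoter, averaged 167 ± 2.60 FPKM in bikaverin and 35.1 ± 0.479 FPKM in pRS416 (log2 fold change 2.22 ± 0.05 SE, limma adjusted p = 4e-08). ZRT3, which releases zinc from the vacuole, stood at 334 ± 9.95 FPKM in bikaverin and 91.5 ± 0.502 FPKM in pRS416 (log2 fold change 1.85 ± 0.05 SE, limma adjusted p = 1.1e-07). ZRC1, which carries zinc into the vacuole, rose least, at 252 ± 17.0 FPKM in bikaverin and 152 ± 2.94 FPKM in pRS416 (log2 fold change 0.72 ± 0.06 SE, limma adjusted p = 2.4e-05). The order of the 4 by log2 fold change, ZRT2, ZAP1, ZRT3 and ZRC1, left gaps larger than the standard errors.

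**Figure D2:**
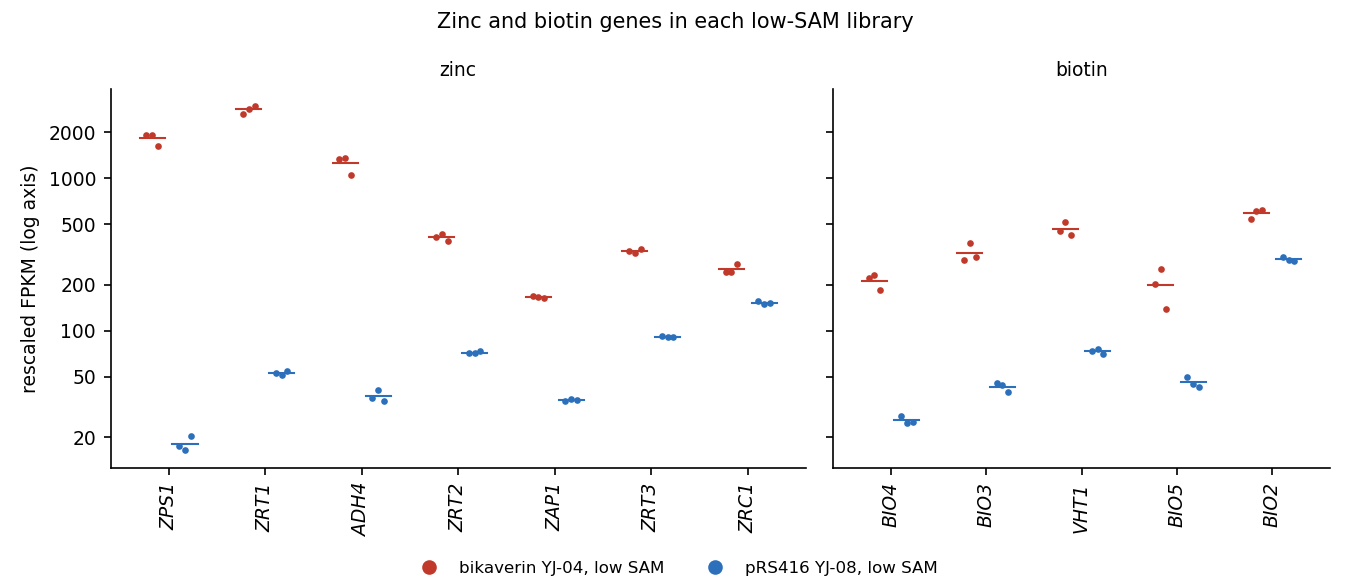
Rescaled FPKM (y, log axis) of the 7 zinc and 5 biotin genes in each low-SAM library, with bikaverin libraries in red, pRS416 libraries in blue and bars at the means of 3. For each of the 12 genes every bikaverin point lies above every pRS416 point, by 100.2-fold in the mean for ZPS1 and 1.66-fold for ZRC1.

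All 5 of 5 biotin genes rose as well, with a median log2 fold change of 2.64. Biotin is the cofactor of acetyl-CoA carboxylase and pyruvate carboxylase, and S. cerevisiae takes it up or makes it from late precursors. VHT1, the plasma-membrane biotin transporter, measured 453, 517 and 423 FPKM in the bikaverin libraries, against 73.5, 75.4 and 70.9 FPKM in the pRS416 libraries. BIO3 and BIO4, neighbours on chromosome XIV that encode the aminotransferase and the dethiobiotin synthetase of the pathway, rose 7.54-fold and 8.26-fold. BIO4 stood at 221, 233 and 186 FPKM with the bikaverin module, against 27.6, 24.7 and 25.1 FPKM with pRS416 (log2 fold change 2.99 ± 0.09 SE, limma adjusted p = 1.3e-07). BIO5, the importer of biotin precursors, rose 4.32-fold and BIO2, biotin synthase, 2.01-fold. BIO5 varied most among bikaverin libraries, at 201.3, 253 and 139.5 FPKM, and still lay above 49.8, 44.9 and 42.7 FPKM in pRS416. The biotin ligase gene BPL1, whose product attaches biotin to those carboxylases, averaged 69.4 ± 2.44 FPKM in bikaverin and 23.6 ± 0.753 FPKM in pRS416 (log2 fold change 1.51 ± 0.06 SE, limma adjusted p = 4.3e-07).

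Genes of sulfate uptake and reduction fell. All 11 of 11 were lower in the bikaverin strain, with a median log2 fold change of -1.38, against a background of 33.9% of features called lower. The sulfate permease genes SUL1 and SUL2 come first in the path. SUL1 gave 36.1, 41.9 and 54.8 FPKM in the bikaverin libraries, against 216, 208 and 189 FPKM in the pRS416 libraries. SUL2 gave 27.0, 26.1 and 26.7 FPKM with the bikaverin module, against 104, 105 and 109.5 FPKM with pRS416. The pRS416 means were 4.62-fold and 3.98-fold the bikaverin means, and no values overlapped (limma adjusted p = 3.6e-06 and 1.1e-07).

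MET14, whose product phosphorylates adenylyl sulfate, showed the largest fall of the list, with 33.8, 40.6 and 36.4 FPKM in the bikaverin libraries, against 198, 194 and 171 FPKM in the pRS416 libraries (log2 fold change -2.31 ± 0.09 SE, limma adjusted p = 3.4e-07). MET3, which starts sulfate activation, had 15.9, 16.8 and 13.9 FPKM with the bikaverin module, against 53.3, 51.0 and 43.0 FPKM with pRS416 (log2 fold change -1.60 ± 0.10 SE, limma adjusted p = 4.3e-06). MET16, PAPS reductase, averaged 25.7 ± 1.83 FPKM in bikaverin and 68.4 ± 1.99 FPKM in pRS416 (log2 fold change -1.38 ± 0.07 SE, limma adjusted p = 1.3e-06). The sulfite reductase genes MET5 and MET10 fell by 1.95 and by 0.67 on the log2 scale, and MET10 changed least of the list. MET1 and MET8, which make the siroheme of that enzyme, fell by 1.22 and 1.09. MET22, which clears the side product of PAPS use, fell by 0.95. MET17, where sulfide joins the carbon chain, averaged 156 ± 18.3 FPKM in bikaverin and 334 ± 20.6 FPKM in pRS416 (log2 fold change -1.10 ± 0.09 SE, limma adjusted p = 1.9e-05). YLR302C lies antisense to MET17, the strand setting of the counting is unknown, and reads of the pair cannot be told apart.

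**Figure D3:**
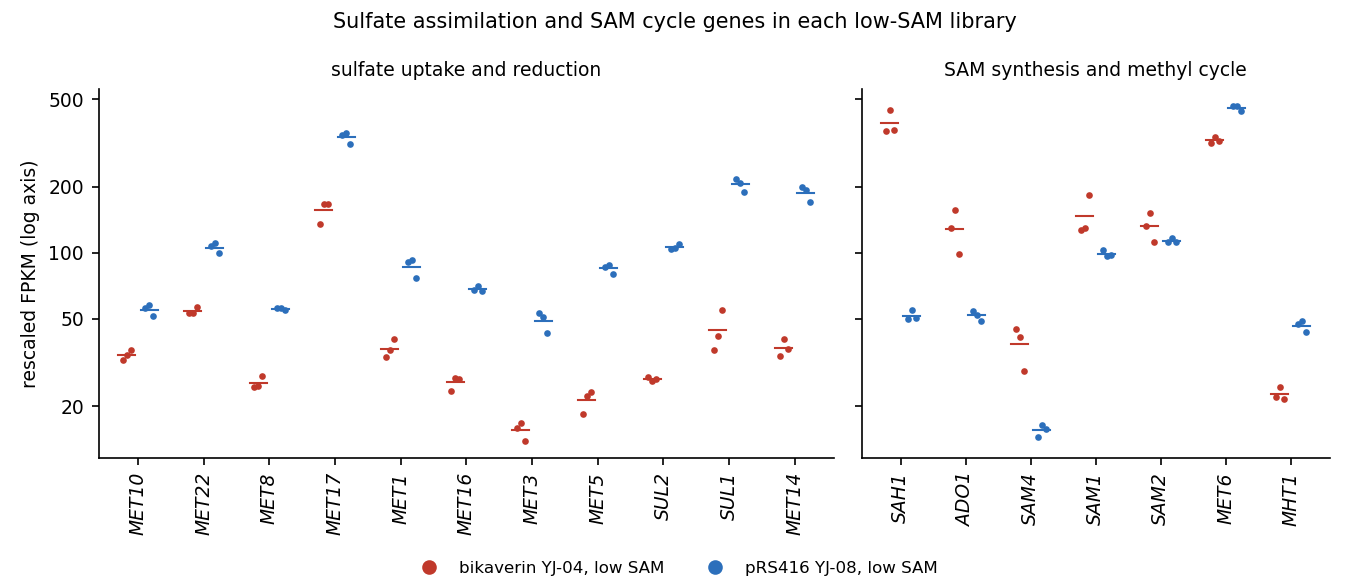
Rescaled FPKM (y, log axis) of 11 sulfate uptake and reduction genes and 7 genes of the SAM and methyl cycle in each low-SAM library, with bikaverin in red, pRS416 in blue and bars at the means of 3. All 11 sulfate genes have their red points below the blue ones, while SAH1, ADO1, SAM4 and SAM1 have theirs above.

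The SAM and methyl cycle split. SAH1, S-adenosylhomocysteine hydrolase, which removes the product of methylation, measured 359, 446 and 362 FPKM in the bikaverin libraries, against 49.6, 54.6 and 50.4 FPKM in the pRS416 libraries. The bikaverin mean was 7.55-fold higher (log2 fold change 2.89 ± 0.09 SE, limma adjusted p = 1.5e-07). ADO1, adenosine kinase, which clears the adenosine that SAH1 releases, gave 129, 156 and 98.1 FPKM in the bikaverin libraries, against 54.4, 52.0 and 48.9 FPKM in the pRS416 libraries. It rose 2.47-fold (log2 fold change 1.26 ± 0.15 SE, limma adjusted p = 0.00011). The SAM synthetase genes differed less: SAM1 stood at 127, 129 and 182 FPKM with the bikaverin module, against 102, 96.5 and 97.8 FPKM with pRS416, and its call (log2 fold change 0.54, limma adjusted p = 0.0061) was lost once the GC trend was removed (adjusted p = 0.15). SAM2 was not called, at 132, 151 and 112 FPKM with the bikaverin module, against 112, 116 and 112 FPKM with pRS416 (log2 fold change 0.20 ± 0.10 SE, limma adjusted p = 0.11), and its values overlapped.

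MET6, methionine synthase, fell to 316, 336 and 322 FPKM in the bikaverin libraries, against 466, 466 and 439 FPKM in the pRS416 libraries (log2 fold change -0.49 ± 0.06 SE, limma adjusted p = 0.00012). Of the homocysteine methyltransferases, SAM4, which uses SAM, rose 2.47-fold (38.4 ± 8.36 FPKM in bikaverin and 15.5 ± 1.03 FPKM in pRS416). MHT1, which uses S-methylmethionine, fell by 1.01 on the log2 scale, with 22.7 ± 1.52 FPKM in bikaverin and 46.5 ± 2.74 FPKM in pRS416. In all, 4 of the 7 genes rose, 2 fell and 1 was not called. The median of 0.54 was 0.23 with the GC trend removed.

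Among regulators of the sulfur genes, MET32 fell most, with 31.8, 27.2 and 32.8 FPKM in the bikaverin libraries, against 138, 150.4 and 135 FPKM in the pRS416 libraries (log2 fold change -2.17 ± 0.08 SE, limma adjusted p = 3.7e-07). MET30, the F-box protein that restrains Met4, averaged 128 ± 2.65 FPKM in bikaverin and 196 ± 10.2 FPKM in pRS416 (log2 fold change -0.61 ± 0.06 SE, limma adjusted p = 4e-05), and MET4 itself 93.4 ± 6.75 FPKM in bikaverin and 119.7 ± 2.28 FPKM in pRS416 (log2 fold change -0.36 ± 0.07 SE, limma adjusted p = 0.0016). MET31 was not called (log2 fold change -0.13, limma adjusted p = 0.22) and its libraries overlapped. CBF1 rose by 0.27 (limma adjusted p = 0.013), and that call was lost without pRS416 replicate 3 (adjusted p = 0.051) and with the GC trend removed (0.41).

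In the carbon branch that leads to homocysteine, MET2, homoserine O-acetyltransferase, which makes the acceptor that MET17 joins to sulfide, measured 34.8, 38.0 and 36.7 FPKM in the bikaverin libraries, against 240.3, 215 and 192 FPKM in the pRS416 libraries. It fell with no overlap (log2 fold change -2.52 ± 0.09 SE, limma adjusted p = 2.1e-07). HOM2, aspartate semialdehyde dehydrogenase, went the other way, with 363, 390.5 and 369 FPKM in the bikaverin libraries, against 95.7, 99.2 and 94.2 FPKM in the pRS416 libraries (log2 fold change 1.95 ± 0.06 SE, limma adjusted p = 1.2e-07), and HOM3, aspartate kinase, rose by 0.41. HOM6, MET7 and MET13 were not called, with log2 fold changes of -0.09, -0.12 and 0.10. The list median of 0.01 changes sign with the GC trend removed (-0.07).

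Transporters of organic sulfur mostly fell, 7 of 9 lower and 2 higher, with a median of -0.67. MUP3, a methionine permease of low affinity, stood at 10.3, 7.83 and 12.3 FPKM with the bikaverin module, against 75.9, 66.6 and 67.3 FPKM with pRS416 (log2 fold change -2.69 ± 0.14 SE, limma adjusted p = 1.6e-06). MMP1, the S-methylmethionine permease, and YCT1, a cysteine transporter, fell by 1.23 and 1.02 on the log2 scale. SOA1, a transporter of sulfonates and other sulfur compounds, rose to 70.5, 72.8 and 80.7 FPKM in the bikaverin libraries, against 24.4, 25.5 and 27.1 FPKM in the pRS416 libraries (log2 fold change 1.50 ± 0.07 SE, limma adjusted p = 1.1e-06). In transsulfuration and glutathione synthesis, 3 genes rose, 4 fell and 4 were not called, shares near those over all features (33.2% and 33.9%). Their median of 0.03 changed sign with the GC trend removed (-0.08). CYS4, cystathionine beta-synthase, averaged 233 ± 15.2 FPKM in bikaverin and 393 ± 4.83 FPKM in pRS416. GSH1, which makes the first bond of glutathione, gave 83.8, 86.5 and 99.6 FPKM with the bikaverin module, against 232, 229.5 and 223 FPKM with pRS416 (log2 fold change -1.34 ± 0.07 SE, limma adjusted p = 2e-06). STR3, a cystathionine beta-lyase, and GTT1, a glutathione transferase, fell by 1.58 and 0.84.

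Methylation of phospholipids is a large use of SAM in yeast. Of the 11 genes of phospholipid methylation and inositol supply, 9 rose and 1 fell, against 33.2% and 33.9% of all features. Their median was 0.88. OPI3, the methyltransferase of the last methylation steps to phosphatidylcholine, measured 842, 853 and 709 FPKM in the bikaverin libraries, against 387, 380.4 and 367 FPKM in the pRS416 libraries (log2 fold change 1.08 ± 0.08 SE, limma adjusted p = 9.9e-06). ITR1, the inositol transporter, gave 351, 403 and 276 FPKM with the bikaverin module, against 108, 103 and 96.6 FPKM with pRS416 (log2 fold change 1.72 ± 0.13 SE, limma adjusted p = 8.5e-06). PIS1, phosphatidylinositol synthase, and CKI1, choline kinase, rose 1.91-fold and 2.38-fold.

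Acetyl-CoA and malonyl-CoA are the building blocks of the polyketide. Their list showed no common direction, with 6 genes higher, 4 lower and 2 not called of 12. The falls were near the share over all features (33.9%, and 33.2% for rises). ALD6, the cytosolic acetaldehyde dehydrogenase, rose 1.65-fold (881 ± 100.1 FPKM in bikaverin and 533 ± 26.3 FPKM in pRS416). ACH1, which moves CoA between acids in the mitochondrion, averaged 999 ± 88.3 FPKM in bikaverin and 454 ± 13.8 FPKM in pRS416 (log2 fold change 1.13 ± 0.08 SE, limma adjusted p = 5.5e-06). ALD3, a stress-induced aldehyde dehydrogenase with a near-identical copy, so that its value is uncertain, fell to 579, 447 and 649.9 FPKM with the bikaverin module, against 1964, 1857 and 1891 FPKM with pRS416.

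In the mevalonate pathway 6 of 9 genes rose and 2 fell, against 33.2% and 33.9% of all features. ERG10, acetoacetyl-CoA thiolase, averaged 214 ± 20.7 FPKM in bikaverin and 123 ± 3.97 FPKM in pRS416, MVD1, mevalonate diphosphate decarboxylase, 48.9 ± 5.72 FPKM in bikaverin and 23.8 ± 1.37 FPKM in pRS416, and ERG20, farnesyl diphosphate synthase, 416 ± 10.7 FPKM in bikaverin and 293 ± 1.13 FPKM in pRS416. HMG2, an HMG-CoA reductase, fell by 0.72 on the log2 scale. From squalene to ergosterol, 12 of 16 rose and 2 fell, ERG4 by 1.68 upward and ERG24 by 1.16 downward. ERG26 and ERG9 rose 2.09-fold and 1.52-fold. Of 16 genes of peroxisomal beta-oxidation, 5 rose and 5 fell, each near the share over all features (33.2% and 33.9%). The acyl-CoA thioesterase TES1 rose 3.48-fold, SPS19 2.09-fold and FAA2, which overlaps a gene on the other strand, 1.69-fold, and the isomerase ECI1 fell by 0.59.

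Within the low-SAM comparison, the TCA cycle and respiratory chain lists were mostly higher in the bikaverin strain, while of 8 tested genes of coenzyme Q synthesis 2 rose and 5 fell, with a median of -0.26. Of the TCA cycle, 16 of 17 genes rose and 1 was not called, with a median log2 fold change of 0.92. IDH2, a subunit of isocitrate dehydrogenase, measured 434, 425 and 304 FPKM in the bikaverin libraries, against 66.1, 69.7 and 72.2 FPKM in the pRS416 libraries (log2 fold change 2.45 ± 0.13 SE, limma adjusted p = 1.6e-06). ACO1, aconitase, stood at 1681, 1676 and 1688 FPKM with the bikaverin module, against 687, 692 and 706 FPKM with pRS416 (log2 fold change 1.27 ± 0.06 SE, limma adjusted p = 6.7e-07). FUM1, fumarase, and LPD1, dihydrolipoamide dehydrogenase, rose 3.54-fold and 2.12-fold.

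Of nuclear genes for respiratory complexes and ATP synthase, 29 of 34 rose, 3 fell and 2 were not called, with a median of 0.83. NDE1, the external NADH dehydrogenase of mitochondria, gave 618, 622 and 559.5 FPKM in the bikaverin libraries, against 166, 168 and 169.6 FPKM in the pRS416 libraries (log2 fold change 1.83 ± 0.06 SE, limma adjusted p = 2e-07). COR1 of complex III averaged 639.9 ± 6.40 FPKM in bikaverin and 238 ± 8.67 FPKM in pRS416. Both named subunits of ATP synthase rose. ATP1 averaged 856 ± 51.0 FPKM in bikaverin and 308 ± 9.49 FPKM in pRS416, and ATP14 averaged 455 ± 22.1 FPKM in bikaverin and 157 ± 4.27 FPKM in pRS416. HAP4, the regulated subunit of the activator of respiratory genes, measured 270.1, 297 and 257 FPKM in the bikaverin libraries, against 96.5, 109.8 and 114 FPKM in the pRS416 libraries (log2 fold change 1.35 ± 0.08 SE, limma adjusted p = 3.4e-06). HAP3 rose 2.07-fold and HAP5 fell by 0.43, while HAP2 and HAP1 were not called, at -0.16 and 0.03. ROX1, a repressor of hypoxic genes, averaged 336 ± 16.5 FPKM in bikaverin and 155 ± 2.44 FPKM in pRS416 (log2 fold change 1.11 ± 0.06 SE, limma adjusted p = 1.6e-06). Of 8 listed protein genes of the mitochondrial genome, the 6 found among the shared features had means under 1 FPKM and were not tested. ATP8 and VAR1 were not found among the shared features.

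The glyoxylate cycle, gluconeogenesis and ethanol use went the other way, 10 of 16 lower and 3 higher, with a median of -0.64. ADY2, an acetate transporter, measured 175, 168 and 64.4 FPKM in the bikaverin libraries, against 1203, 1260 and 1047 FPKM in the pRS416 libraries (log2 fold change -3.22 ± 0.34 SE, limma adjusted p = 5.6e-05), and bikaverin replicate 3 was the lowest. PCK1, phosphoenolpyruvate carboxykinase, stood at 34.4, 33.4 and 58.8 FPKM with the bikaverin module, against 177, 168 and 151 FPKM with pRS416 (log2 fold change -1.99 ± 0.19 SE, limma adjusted p = 3.8e-05). ICL1, isocitrate lyase, averaged 247 ± 22.6 FPKM in bikaverin and 545 ± 49.3 FPKM in pRS416, and SFC1, the mitochondrial succinate carrier, 113 ± 16.8 FPKM in bikaverin and 349.8 ± 47.9 FPKM in pRS416.

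The galactose regulon was highly expressed in both strains and higher in the bikaverin strain, 7 of 8 genes called, with a median of 1.43. GAL1, galactokinase, measured 6824, 7134 and 7276 FPKM in the bikaverin libraries, against 1831, 1834 and 1838 FPKM in the pRS416 libraries (log2 fold change 1.95 ± 0.07 SE, limma adjusted p = 2.2e-07). GAL7 and GAL10 encode the other enzymes of the cluster. GAL7 rose 3.27-fold, GAL10 by 1.58 on the log2 scale, and GAL2, the galactose permease, 2.27-fold (6916 ± 856 FPKM in bikaverin and 3043 ± 132 FPKM in pRS416). GAL10 and GAL4 overlap noncoding RNAs on the other strand, whose reads cannot be told apart from their own. The regulators GAL3 and GAL80 rose 3.89-fold and 2.42-fold, whereas the activator GAL4 was not called (log2 fold change -0.09, limma adjusted p = 0.35). PGM2, phosphoglucomutase, rose by 0.35, a call lost when all 12 libraries were fitted together (adjusted p = 0.18).

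Hexose transporters did not share a direction, with 4 higher and 6 lower of 17 tested, shares below and near those over all features (33.2% and 33.9%). HXT6 and HXT7 encode high-affinity transporters nearly identical in sequence and so uncertain as single genes. HXT6 averaged 1997 ± 430.0 FPKM in bikaverin and 248 ± 15.2 FPKM in pRS416, and HXT7 averaged 1515 ± 303 FPKM in bikaverin and 198 ± 11.7 FPKM in pRS416. HXT2 rose 3.29-fold and HXT10 fell by 0.83. Of 11 genes of the pentose phosphate pathway 5 rose, 5 fell and 1 was not called, against 33.2% and 33.9% of all features called higher and lower. TKL1, transketolase, measured 251, 302 and 208 FPKM in the bikaverin libraries, against 17.9, 18.7 and 17.5 FPKM in the pRS416 libraries (log2 fold change 3.73 ± 0.12 SE, limma adjusted p = 1.7e-07), and GND1, 6-phosphogluconate dehydrogenase, 136, 167 and 148 FPKM with the bikaverin module, against 14.2, 13.5 and 13.9 FPKM with pRS416 (log2 fold change 3.34 ± 0.08 SE, limma adjusted p = 4e-08). TAL1, transaldolase, rose 2.12-fold, and RKI1, ribose-5-phosphate isomerase, fell by 1.26. The list median of 0.07 turned to -0.25 with the GC trend removed.

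Of the iron regulon, 19 of 21 genes rose and 2 fell, with a median of 0.68. FIT3 and FIT2 encode mannoproteins that hold iron siderophores at the cell wall. FIT3 measured 4313, 3818 and 4521 FPKM in the bikaverin libraries, against 136, 132 and 139.5 FPKM in the pRS416 libraries (log2 fold change 4.94 ± 0.08 SE, limma adjusted p = 4.1e-09). FIT2 measured 1706, 1401 and 1151 FPKM with the bikaverin module, against 167, 168 and 175 FPKM with pRS416 (log2 fold change 3.04 ± 0.13 SE, limma adjusted p = 5.3e-07). TIS11, which destabilises mRNAs of iron-using proteins, rose 4.82-fold, with bikaverin values from 113.9 to 222 FPKM, and FRE6, a metalloreductase, 1.92-fold.

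Genes of the cell wall mostly rose. In wall glucan synthesis and remodelling 14 of 18 genes were higher and none lower, with a median of 1.30. GAS1, a glucan-elongating enzyme, measured 185, 232 and 229.6 FPKM in the bikaverin libraries, against 16.7, 17.9 and 20.1 FPKM in the pRS416 libraries (log2 fold change 3.49 ± 0.10 SE, limma adjusted p = 1.2e-07). SCW4, a wall protein related to glucanases, had 140.5, 169.8 and 164 FPKM with the bikaverin module, against 12.2, 13.4 and 14.6 FPKM with pRS416 (log2 fold change 3.47 ± 0.09 SE, limma adjusted p = 7.5e-08), and its relative SCW10 rose 10.6-fold. DSE2, made in daughter cells to part them from the mother, rose 5.02-fold. Among PIR and covalently linked wall proteins 7 rose and 3 fell. CIS3, a PIR protein, measured 177, 229 and 171 FPKM in the bikaverin libraries, against 4.83, 5.53 and 5.76 FPKM in the pRS416 libraries (log2 fold change 4.91 ± 0.12 SE, limma adjusted p = 4e-08), and CCW12, an abundant mannoprotein, 3146, 4239 and 3377 FPKM with the bikaverin module, against 411, 485 and 546 FPKM with pRS416. CWP1 and PIR3 fell by 1.06 and 0.62 on the log2 scale. Of 9 cyclins 5 rose and 4 were not called, against 33.2% of all features called higher. CLN1 rose 2.52-fold, CLN3 1.63-fold, CLB1 2.90-fold and CLB2 4.36-fold, the last at low levels (9.09 ± 1.43 FPKM in bikaverin and 2.09 ± 0.373 FPKM in pRS416).

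General stress genes fell, 14 of 20, with 3 higher and a median of -0.92. HSP12, a small membrane-stabilising protein and among the most abundant transcripts, measured 14894, 13068 and 14111 FPKM in the bikaverin libraries, against 34558, 34868 and 35462 FPKM in the pRS416 libraries (log2 fold change -1.32 ± 0.10 SE, limma adjusted p = 7.8e-06), a call lost under quantile normalization (adjusted p = 0.20). GRE1, a hydrophilin of dry or salty conditions, gave 6880, 5881 and 8086 FPKM with the bikaverin module, against 29506, 30788 and 31982 FPKM with pRS416 (log2 fold change -2.16 ± 0.12 SE, limma adjusted p = 2.6e-06). STF2, which stabilises the ATP synthase with its inhibitor, averaged 1234 ± 141 FPKM in bikaverin and 3490 ± 198 FPKM in pRS416. Of meiosis and spore genes 8 of 16 fell and 3 rose, against 33.9% and 33.2% of all features. SPS100, a spore-wall gene, measured 1264, 951 and 926 FPKM in the bikaverin libraries, against 5611, 5576 and 5571 FPKM in the pRS416 libraries (log2 fold change -2.43 ± 0.12 SE, limma adjusted p = 1e-06); it overlaps a noncoding RNA on the other strand. HOP1, of the meiotic chromosome axis, fell by 1.78 and SPR3, a spore septin, by 0.96, while DIT1 rose 1.64-fold. Of 8 markers of sporulating cells 2 rose, 3 fell and 3 were not called, against 33.2% and 33.9% of all features. Their summed level was 1036 to 1398 FPKM in bikaverin libraries and 5698 to 5738 FPKM in pRS416 libraries, and none was at 0 in either group. Most of the sum was SPS100, which on the same scale averaged 1051 FPKM in bikaverin and 5593 FPKM in pRS416. The marker NDT80 averaged 19.0 FPKM in bikaverin and 13.2 FPKM in pRS416. The part of sporulating cells in the other results was not tested.

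**Figure D4:**
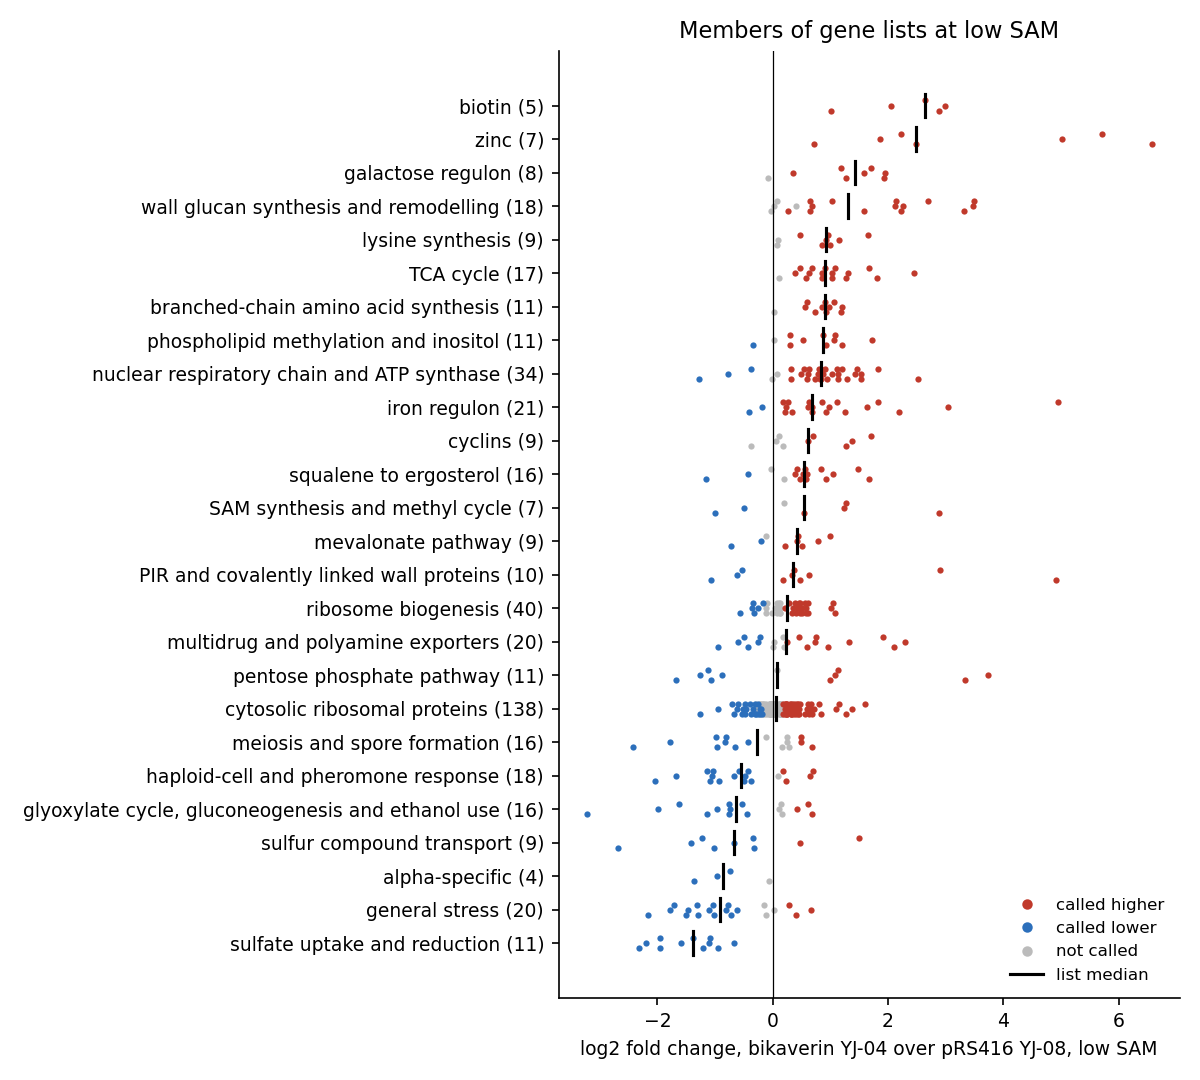
Log2 fold change of the bikaverin strain over the pRS416 strain at low SAM (x) for each tested member of 26 gene lists (y, number tested in brackets), ordered by median. Red points were called higher, blue lower and grey not called, and black bars are medians, from 2.64 for biotin to -1.38 for sulfate uptake and reduction.

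Markers of mating type were read in both strains. Haploid-cell genes and genes of alpha cells, in particular the alpha-factor gene MF(ALPHA)1, are switched off in diploids. MF(ALPHA)1 measured 347, 432 and 331 FPKM in the bikaverin libraries, against 712, 695 and 757 FPKM in the pRS416 libraries (log2 fold change -0.97 ± 0.10 SE, limma adjusted p = 5.6e-05). The alpha-factor receptor of a cells, STE2, stood at 15.7, 11.9 and 13.6 FPKM with the bikaverin module, against 10.8, 12.1 and 11.6 FPKM with pRS416 and was not called. STE3, the a-factor receptor of alpha cells, averaged 66.9 ± 7.88 FPKM in bikaverin and 112 ± 6.13 FPKM in pRS416, and SAG1, the alpha agglutinin, 52.9 ± 0.338 FPKM in bikaverin and 138 ± 8.02 FPKM in pRS416; both fell, while MF(ALPHA)2 was not called. The 4 alpha markers summed to 482 to 599.7 FPKM in bikaverin and 987 to 1066 FPKM in pRS416 libraries, the 7 a markers to 94.0 to 99.9 FPKM in bikaverin and 147.4 to 153.6 FPKM in pRS416 libraries, and no marker of either list was at 0. Among a markers MFA1, MFA2 and AGA2 fell, by 1.28, 0.62 and 1.34. ASG7 rose by 0.50 from very low levels, a call lost when any of 5 of the 6 libraries was left out, under quantile normalization and with the GC trend removed (adjusted p from 0.054 to 0.33). STE6 and BAR1 were not called. The part of mating type or ploidy in the other results was not tested.

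Of 18 haploid and pheromone-response genes, 13 fell and 4 rose, with a median of -0.55. AGA1, the anchor subunit of the a agglutinin, measured 17.8, 17.7 and 19.0 FPKM in the bikaverin libraries, against 73.2, 77.7 and 82.0 FPKM in the pRS416 libraries (log2 fold change -2.04 ± 0.07 SE, limma adjusted p = 1.9e-07). STE4, the beta subunit of the pheromone G protein, averaged 100.4 ± 4.87 FPKM in bikaverin and 206 ± 7.07 FPKM in pRS416, FUS2, which acts in cell fusion, 13.5 ± 0.24 FPKM in bikaverin and 45.1 ± 0.951 FPKM in pRS416, and SST2, which turns the signal off, 12.7 ± 1.17 FPKM in bikaverin and 27.4 ± 0.955 FPKM in pRS416. STE18, the gamma subunit, fell by 0.48 and NEJ1, a gene of DNA end joining that haploids express, by 1.13.

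The lists of amino acid synthesis differed in direction. In branched-chain synthesis 10 of 11 were higher and none lower, with a median of 0.91. ILV2, acetolactate synthase, measured 353, 390.2 and 403 FPKM in the bikaverin libraries, against 169, 165 and 164 FPKM in the pRS416 libraries (log2 fold change 1.20 ± 0.07 SE, limma adjusted p = 1.9e-06), its regulatory subunit ILV6 rose 1.97-fold, ILV3 2.10-fold and ILV1, threonine deaminase, 1.89-fold. In lysine synthesis 7 of 9 rose, led by LYS1 at 159 ± 9.83 FPKM in bikaverin and 49.7 ± 2.33 FPKM in pRS416; LYS4 rose 1.97-fold, and LYS21, which has a close copy and is uncertain, 1.91-fold. Of the 5 tested glutamate and glutamine genes 2 rose and 3 fell, with a median of -0.49. Arginine synthesis had 7 higher and 2 lower of 9, and histidine and tryptophan synthesis 7 and 1 of 10. Of nitrogen-repressed permeases and catabolic genes 9 of 17 fell and 5 rose, against 33.9% and 33.2% of all features. GAP1, the general amino acid permease, gave 291, 279 and 368 FPKM with the bikaverin module, against 1052, 942 and 968 FPKM with pRS416 (log2 fold change -1.67 ± 0.11 SE, limma adjusted p = 4.3e-06), UGA2 and MEP3 fell by 1.20 and 0.84, and PUT1, proline oxidase, rose 2.44-fold.

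Among genes often used as markers in laboratory strains, LYS2, HIS3, TRP1 and LEU2 rose 2.04-fold, 2.10-fold, 1.46-fold and 1.55-fold. LEU2 measured 320.5, 400.1 and 282 FPKM in the bikaverin libraries, against 221, 217 and 210.1 FPKM in the pRS416 libraries. HO, the mating-type switching nuclease, averaged 10.2 ± 2.65 FPKM in bikaverin and 5.82 ± 0.471 FPKM in pRS416, and ADE2 was not called, at 162 ± 38.6 FPKM in bikaverin and 176 ± 0.29 FPKM in pRS416. No marker of this list was at 0 in either strain.

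Of 138 cytosolic ribosomal protein genes, 50 rose, 23 fell and 65 were not called, with a median of 0.05. The rises were near the share over all features (33.2%) and the falls below it (33.9%). The split of the 138 genes depended on the scaling, with 77 higher and 16 lower under equal sums (median 0.19) and 45 higher and 31 lower under quantile normalization (median 0.03). RPP0, the stalk protein, averaged 416 ± 7.17 FPKM in bikaverin and 161 ± 8.84 FPKM in pRS416 and RPS2 499.5 ± 9.37 FPKM in bikaverin and 280.5 ± 4.78 FPKM in pRS416; RPL12B and RPL8B, uncertain because each has a near-identical copy, rose 3.07-fold and 2.22-fold. Of 40 genes of ribosome assembly, 21 were higher and 6 lower, with NOP1 at 2.14-fold, NOP58 at 2.08-fold, RPA135 at 1.41-fold and TIF6 at 1.31-fold. Of 20 multidrug and polyamine exporters 10 rose and 6 fell, the falls being near the share over all features (33.9%, and 33.2% for rises). PDR12, the exporter of weak organic acids, measured 1543, 1728 and 1826 FPKM in the bikaverin libraries, against 389, 378 and 421 FPKM in the pRS416 libraries (log2 fold change 2.10 ± 0.08 SE, limma adjusted p = 3.7e-07). SNQ2, an ABC transporter of many compounds, had 548, 535 and 532 FPKM with the bikaverin module, against 135, 147 and 145 FPKM with pRS416 (log2 fold change 1.91 ± 0.06 SE, limma adjusted p = 1.3e-07). QDR2 rose 5.41-fold and TPO1, a polyamine exporter, 2.55-fold.

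Other genes were named for the size of their change. ASP3-3 and ASP3-4, copies of the cell-wall asparaginase gene on chromosome XII that are near-identical in sequence and so uncertain as single genes, were both higher. ASP3-3 stood at 79.7, 72.3 and 65.2 FPKM with the bikaverin module, against 0.111, 0.145 and 0.179 FPKM with pRS416. ASP3-4 stood at 118, 142 and 119 FPKM with the bikaverin module, against 3.19, 3.72 and 5.16 FPKM with pRS416. FDH1, formate dehydrogenase, also with a near-identical copy and uncertain, rose 15.9-fold (170.0 ± 32.0 FPKM in bikaverin and 10.7 ± 1.20 FPKM in pRS416). UTH1, a SUN-family protein of the mitochondrion and wall, measured 2925, 3149 and 3726 FPKM in the bikaverin libraries, against 231, 229 and 238 FPKM in the pRS416 libraries (log2 fold change 3.80 ± 0.09 SE, limma adjusted p = 4e-08). SRL1, a wall mannoprotein, had 144, 196 and 199 FPKM with the bikaverin module, against 9.48, 11.4 and 11.4 FPKM with pRS416, and BOL1, which acts in mitochondrial iron-sulfur cluster assembly, 23.7, 23.4 and 22.5 FPKM with the bikaverin module, against 0.724, 0.609 and 0.292 FPKM with pRS416. YFR052C-A, which was not matched to the R64 reference, averaged 250.2 ± 28.2 FPKM in bikaverin and 12.9 ± 2.32 FPKM in pRS416.

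Besides ADY2, MUP3 and MET2, the largest falls were these. YDR220C, also not matched to R64, averaged 1.65 ± 0.824 FPKM in bikaverin and 52.7 ± 1.69 FPKM in pRS416 (log2 fold change -4.39 ± 0.21 SE, limma adjusted p = 1.1e-06). DMO1 averaged 7.75 ± 2.83 FPKM in bikaverin and 132 ± 21.3 FPKM in pRS416 (log2 fold change -3.97 ± 0.24 SE, limma adjusted p = 3.1e-06). YDL218W had 181, 123 and 99.3 FPKM with the bikaverin module, against 1623, 1615 and 1630 FPKM with pRS416 (log2 fold change -3.63 ± 0.18 SE, limma adjusted p = 1.3e-06) and YCL048W-A 252, 221 and 151 FPKM with the bikaverin module, against 1485, 1656 and 1741 FPKM with pRS416 (log2 fold change -2.99 ± 0.17 SE, limma adjusted p = 2.3e-06). RAD59, of recombinational repair, had 11.8, 11.8 and 11.4 FPKM in the bikaverin libraries, against 80.6, 81.5 and 74.9 FPKM in the pRS416 libraries (log2 fold change -2.66 ± 0.06 SE, limma adjusted p = 4e-08). YKL068W-A fell by 2.59, and LSO1, YHR050W-A and YOR029W, all of which had under 30 FPKM in every library, by 2.66, 2.60 and 2.55. Lack of overlap was a condition for choosing these genes, and 4520 of the 6218 tested features (72.7%) met it. No feature matched to R64 had at least 10 FPKM in 1 strain and at most 3 reads over the 3 libraries of the other. Unmatched features have no recovered reads and were not searched.

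The same contrast was then set against the one at high SAM, strain YJ-06 over strain YJ-09, in a fit of all 12 libraries. A fixed offset between the tables multiplies a gene alike in both contrasts and cancels in their difference, but the 4 groups are 4 strains. The low-SAM log2 fold change exceeded the high-SAM one for 1865 of 6249 features (29.8%) and was below it for 1747 (28.0%). Among features called at low SAM, 2626 of 4167 (63.0%) also had a called difference, against 967 of 2029 (47.7%) among those not called. Each percentage shares the low-SAM libraries with the call it is set beside, so the shares are given without a test.

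**Figure D5:**
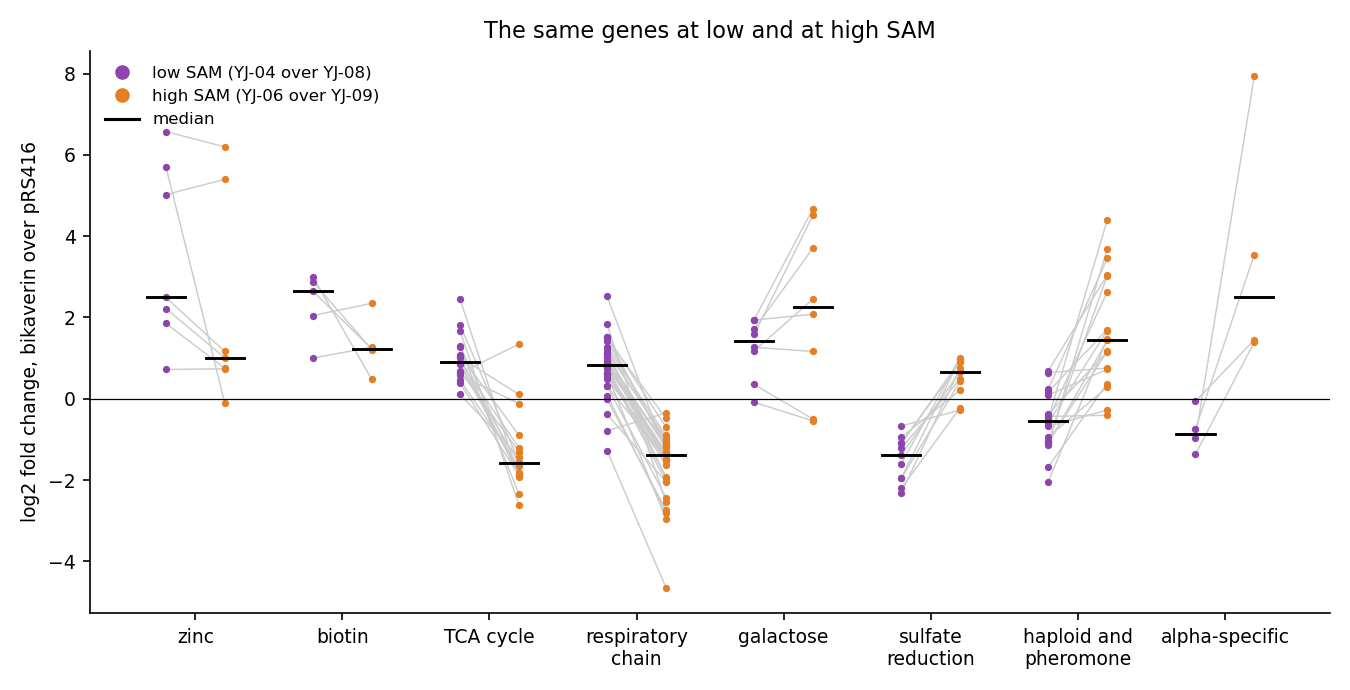
Log2 fold change of the bikaverin strain over the pRS416 strain (y) for members of 8 gene lists, at low SAM in purple and at high SAM in orange, with grey lines joining a gene and black bars at the medians. TCA cycle genes have a median of 0.92 at low SAM and -1.57 at high SAM, and sulfate genes -1.38 and 0.67.

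Respiratory gene lists had medians of opposite sign at low and high SAM. The TCA list had a median of 0.92 at low SAM and -1.57 at high SAM, with 15 of 17 differences called positive, and the respiratory chain 0.83 and -1.39, with 33 of 34 positive. HAP4 averaged 276 FPKM in YJ-04, 107 FPKM in YJ-08, 123 FPKM in YJ-06 and 1539 FPKM in YJ-09 (difference 4.98 ± 0.18 SE, limma adjusted p = 7.6e-10). ACO1 averaged 1688 FPKM in YJ-04, 696 FPKM in YJ-08, 476 FPKM in YJ-06 and 2424 FPKM in YJ-09 (difference 3.62 ± 0.11 SE, limma adjusted p = 3e-10). For both genes YJ-09 was the highest of the 4 strains, and the lowest was YJ-08 for HAP4 and YJ-06 for ACO1.

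The sulfate list also had medians of opposite sign, with 10 of 11 differences called negative and medians of -1.38 at low and 0.67 at high SAM. MET14 averaged 37.1 FPKM in YJ-04, 188 FPKM in YJ-08, 161 FPKM in YJ-06 and 94.5 FPKM in YJ-09 (difference -3.06 ± 0.17 SE, limma adjusted p = 1.8e-08). YJ-04 was by far the lowest. MET10 was the member without a called difference (-0.38). SAH1 was higher in the bikaverin strain at both levels and more so at low SAM, with 391 FPKM in YJ-04, 51.6 FPKM in YJ-08, 613 FPKM in YJ-06 and 267 FPKM in YJ-09 (difference 1.73 ± 0.23 SE, limma adjusted p = 3.5e-05), and MET6 turned sign, with 326 FPKM in YJ-04, 458 FPKM in YJ-08, 660.5 FPKM in YJ-06 and 335 FPKM in YJ-09 (difference -1.46 ± 0.14 SE, limma adjusted p = 2.8e-06).

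Zinc genes were split by this test. ZPS1, ADH4 and ZRC1 were higher with the bikaverin module at both SAM levels, and their differences of 0.39, -0.36 and -0.005 were not called. ZRT2, ZAP1 and ZRT3 were also higher at both levels, with high-SAM log2 fold changes of 1.17, 1.01 and 0.75. Their differences of 1.33, 1.22 and 1.11 were called. ZPS1 averaged 1830 FPKM in YJ-04, 18.2 FPKM in YJ-08, 2704 FPKM in YJ-06 and 32.1 FPKM in YJ-09. ZRT1 was not called at high SAM, where its log2 fold change was -0.10, and averaged 2836 FPKM in YJ-04, 53.1 FPKM in YJ-08, 735 FPKM in YJ-06 and 790.0 FPKM in YJ-09 (difference 5.81 ± 0.13 SE, limma adjusted p = 2.3e-11), YJ-08 being by far the lowest. In the iron list FIT3 behaved likewise, with 4233 FPKM in YJ-04, 136 FPKM in YJ-08, 3534 FPKM in YJ-06 and 3491 FPKM in YJ-09 (difference 4.94 ± 0.18 SE, limma adjusted p = 9.5e-10). Of the biotin genes, VHT1, BIO3 and BIO4 had positive differences of 1.42, 1.68 and 2.53, and those of BIO2 and BIO5, -0.26 and -0.29, were not called. GAL1 rose more at high SAM, with 7105 FPKM in YJ-04, 1837 FPKM in YJ-08, 6220 FPKM in YJ-06 and 241 FPKM in YJ-09 (difference -2.72 ± 0.19 SE, limma adjusted p = 1.2e-07).

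The 5 largest positive differences among genes of at least 10 FPKM called in both fits were those of CIS3, ZRT1, PCL1, a cyclin of the Pho85 kinase, snR30, a small nucleolar RNA not matched to R64, and HAP4. CIS3 averaged 193 FPKM in YJ-04, 5.38 FPKM in YJ-08, 259 FPKM in YJ-06 and 836 FPKM in YJ-09 (difference 6.62 ± 0.24 SE, limma adjusted p = 8.5e-10). PCL1 had 48.1 FPKM in YJ-04, 6.18 FPKM in YJ-08, 101 FPKM in YJ-06 and 595 FPKM in YJ-09. The 5 most negative were those of MF(ALPHA)1, YDL218W, YCL048W-A, STE18 and NEJ1. MF(ALPHA)1 averaged 371 FPKM in YJ-04, 722 FPKM in YJ-08, 1191 FPKM in YJ-06 and 3.74 FPKM in YJ-09 (difference -8.89 ± 0.27 SE, limma adjusted p = 3e-10), and STE18 73.6 FPKM in YJ-04, 103 FPKM in YJ-08, 65.7 FPKM in YJ-06 and 2.24 FPKM in YJ-09 (difference -4.86 ± 0.18 SE, limma adjusted p = 9.4e-10). The 8 haploid markers summed to 594 to 638 FPKM in YJ-04, 933 to 974 FPKM in YJ-08, 624 to 727 FPKM in YJ-06 and 111.1 to 128.6 FPKM in YJ-09, and the 4 alpha markers to 482 to 599.7, 987 to 1066, 1115 to 2006 and 64.9 to 75.4 FPKM in that order of strains. YJ-09 therefore stood apart from the other 3 strains in these genes, and each difference above holds that strain. Its part in them was not tested.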

How the data were processed

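Total RNA of 12 libraries was sequenced after kit-based library preparation, per the labels' protocols. The deposited values are FPKM per gene in 2 tables, made by the authors. The submitters' processing notes name fastp, HISAT2 2.0.5, featureCounts 1.5.0-p3 and build R64, while no source used here gives the strand setting, annotation or read filters. Each column was assigned by its library name, since another label field gives other numbers. Tables list 6845 and 6818 features. Identifiers were matched after unifying punctuation (463 restyled), 14 unnamed transcripts numbered separately in each table were dropped, and 5930 of 6526 shared features (90.9%) were matched to RefSeq R64. FPKM times exonic length gave whole reads for 97.3% to 98.8% of values under a tolerance of 0.02, which gave the depths. For 1 kb of gene, 3 reads correspond to 0.170 to 0.183 FPKM in the bikaverin and 0.0665 to 0.0713 FPKM in the pRS416 low-SAM libraries, counting error only.

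The 6 low-SAM libraries were rescaled by median-of-ratios and tested with limma 3.58.1 in R 4.3.3 (trend, log2(FPKM + 1), mean of at least 1 FPKM, no replicate block), and the difference between SAM levels in a fit of all 12. The fits were run on simulated data in which few genes changed and no GC trend was present. These data differ from that setting in both respects, so the simulation does not bear on them there. Near-identical copies were found with BLAST+ 2.17.0 (at least 90% identity over at least 50% of length). Members and gene lists were chosen with earlier results of these data known, and each of 63 lists is described by counts and median only. Named genes were SAM1, SAM2, SAH1, ADO1, MET6, and the sulfate and marker lists. The 12 largest rises and 12 largest falls were added, among called genes without overlap and of at least 10 FPKM in the higher strain. Also named were up to 4 called members of smallest p of a described list (all members of lists of 8 or fewer). The 5 largest differences in each direction completed them. Alternatives covered scaling, pseudocount, filter, samples fitted, recovered reads, a replicate block, leaving out each library and a GC trend.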

Additional observations from a re-analysis of the deposited data

Results flagged for a closer look

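The 64 genes given here were chosen with their values known. They were kept only where the bikaverin over pRS416 log2 fold change differed between the SAM levels (limma on 12 libraries, adjusted p below 0.05). Others examined, such as ZPS1 and ADH4, had no called difference. The difference was positive for 32 of the 64 and negative for 32. Over all 6249 features, 29.8% were called positive and 28.0% negative. A positive difference need not be a rise: PCK1 had log2 fold changes of -1.99 at low SAM and -5.91 at high SAM, and ICL1 -1.14 and -3.91. The values that follow are low-SAM minus high-SAM differences in log2 fold change. The largest were 6.62 for CIS3, 5.81 for ZRT1, 5.29 for PCL1, 5.03 for snR30, 4.98 for HAP4, 4.94 for FIT3, 4.81 for SCW10, 4.38 for NDE1 and 4.38 for IDH2. Next came 4.11 for FDH1, 3.92 for PCK1, 3.87 for SRL1, 3.62 for ACO1, 3.37 for FUM1, 3.35 for GAS1, 2.79 for ICL1, 2.55 for COR1 and 2.53 for BIO4. Smaller ones were 2.24 for ATP14, 2.18 for ROX1, 1.99 for LPD1, 1.96 for ATP1, 1.79 for SCW4, 1.73 for SAH1, 1.68 for BIO3, 1.42 for VHT1 and 1.33 for ZRT2. Others were 1.33 for HAP3, 1.22 for ZAP1, 1.11 for ZRT3, 0.75 for SAM2 and 0.54 for ADO1. The most negative were -8.89 for MF(ALPHA)1, -6.17 for YDL218W, -5.97 for YCL048W-A, -4.86 for STE18, -4.81 for NEJ1, -4.28 for STE3, -4.05 for STE4, -3.87 for SPS100 and -3.50 for AGA1. Then followed -3.06 for MET14, -2.93 for GAL10, -2.92 for MET5, -2.75 for SAG1, -2.72 for GAL1, -2.67 for GAP1, -2.60 for MET3, -2.37 for SUL2 and -2.25 for MET2. Less negative were -2.21 for SST2, -2.04 for MET16, -2.04 for FUS2, -2.03 for MET17, -1.99 for GAL7, -1.99 for MET8, -1.97 for SUL1, -1.69 for MET1 and -1.50 for MF(ALPHA)2. Others among them were -1.46 for URA3, -1.46 for MET6, -1.27 for GAL2, -1.15 for MET22 and -1.01 for MET32. Each difference also holds strain YJ-09, which stood apart from the other 3 strains in MF(ALPHA)1, STE18, HAP4 and PCK1, and its part was not tested.

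Some features of the bikaverin module, which belong to no comparison here, were above 0 in some pRS416 libraries, with the highest value in replicate 1 at each SAM level and all 6 at 0 in high-SAM replicate 2. They reached 0.805 FPKM at low SAM, for PPT in replicate 1, and 1.26 FPKM at high SAM, against a limit of 0.0665 to 0.0737 FPKM for 3 reads on 1 kb. Groups of 3 libraries are too small for a test of single outlying libraries.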

How the results depend on the processing

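Across 11 alternatives of scaling, pseudocount, filter, samples and unit, the GC alternative added after seeing the data, and leaving out each library, every count of calls stayed within 1.5 times its value, and none of the 191 named genes was reversed. Genes called higher numbered 1859 to 2628 over the alternatives and 1836 to 2210 with a library left out, against 2065, and genes called lower 1597 to 2234 and 1854 to 2275, against 2108. With 1 log2 unit as a limit, a pseudocount of 5 gave the fewest, 382 higher and 230 lower, against 532 and 328. Of the named genes 178 were called and 16 changed side of the threshold in at least 1 alternative: SAM1, SAM2, MET13, CBF1, MET31, HOM6, ADE2, HAP1, HAP2, PGM2, HSP12, ASG7, STE2, BAR1, STE6 and MF(ALPHA)2. HSP12 lost its call under quantile normalization (adjusted p = 0.20), where its fall shrank to 0.15; the cause was not tested. With the GC trend removed 1970 were higher and 1941 lower of 5829.

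The numbers of the replicates did not pair the samples (same-number correlations of deviations -0.026, 0.057 and 0.033). With a replicate block, 2016 genes were higher and 2042 lower, 1847 differences were positive and 1719 negative, and no named gene changed its call. Differences between the SAM levels numbered 1694 to 1866 positive and 1570 to 1895 negative over all alternatives run, against 1865 and 1747.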
